A study of Mus musculus with 6 samples.

Results

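The 10 genes described here encode receptors and cytotoxic granule proteins of natural killer cells. They were taken by symbol from the 27381 genes measured on the arrays, and all 10 had a value in every sample. The receptor genes were Ncr1 (NKp46), Klrk1 (NKG2D), Klrd1 (CD94), Klre1 (NKG2I), Klrb1c (NK1.1) and Cd244a (2B4), and the granule genes were Prf1, Gzma, Gzmb and Nkg7. Whole-liver RNA of C57BL/6J mice was compared on 6 Affymetrix Mouse Gene 2.0 ST arrays, 3 for AAV-Glrx and 3 for AAV control. Both groups had eaten the same NASH diet from 10 weeks of age for 32 weeks, with 40% of its energy from fat (palm oil), 20% of its energy from fructose, and 2% cholesterol. The vector was injected intraperitoneally at 1e+12 vector genomes per mouse after 20 weeks on the diet, and livers were taken 12 weeks later. AAV-Glrx carried mouse Glrx with an HA/FLAG tag under control of the Serpina7 (TBG) promoter. That promoter is specific to hepatocytes, so the transgene was not directed to the lymphocytes whose genes are reported here. AAV control carried the same vector with no insert. Each array carried a pool of RNA, 3 pools from the 5 or 6 mice of a group, and no source used here says how the mice were divided among the pools. The samples are called AAV-Glrx 1 to 3 and AAV control 1 to 3, as in the labels.

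Natural killer cells are innate lymphocytes that kill stressed, infected or transformed cells, and they are abundant among the lymphocytes of the liver together with the closely related type 1 innate lymphoid cells (ILC1). Whether such a cell attacks depends on the balance between activating receptors, such as NKp46 and NKG2D, and inhibitory receptors, such as CD94 paired with NKG2A. After activation, secretory granules move to the contact with the target and release perforin, which forms pores in the membrane, and granzymes, the proteases that then enter the target and start its death. Most of these genes are also transcribed in cytotoxic T cells and natural killer T cells, and in RNA of whole liver the source of a transcript cannot be told.

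Most of the stretches of sequence directly upstream of these genes hold the same short motif. The 250 bases before the annotated transcription start were taken from RefSeq (mouse build GRCm38.p6) for the 9 genes with an entry there, all but Klrd1, and were searched on both strands for the motifs of 3 transcription factor families that act in natural killer cells. The core motif of the Runx family, TGTGGT, was found for 8 of the 9 genes (88.9%), against 14.0% of the 32841 windows and 15.9% of the 27018 genes in the same table. Where the motif lay on the strand opposite to the gene, it reads ACCACA below. The T-box motif GGTGTGA was found for 1 of the 9 genes, against 3.85% of all genes, and the STAT motif TTCNNNGAA for 1 of the 9 genes, against 8.13% of all genes. Both of these were in the window of Nkg7, where they did not overlap the Runx motif. A match is a run of letters and does not show that a factor binds there. The windows of Ncr1, Prf1 and Nkg7 are shown because these 3 genes had the smallest p-values of the 10. They are written 5′ to 3′ on the strand of the gene and end at the base before the start, with the Runx motif of either strand in capitals.
Ncr1, chr7:4337465-4337714, plus strand: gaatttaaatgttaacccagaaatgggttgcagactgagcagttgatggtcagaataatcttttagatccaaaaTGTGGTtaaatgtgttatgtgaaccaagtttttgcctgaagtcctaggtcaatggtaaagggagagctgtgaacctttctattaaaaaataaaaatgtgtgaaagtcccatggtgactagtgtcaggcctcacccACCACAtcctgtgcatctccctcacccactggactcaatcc
Prf1, chr10:61297586-61297835, plus strand: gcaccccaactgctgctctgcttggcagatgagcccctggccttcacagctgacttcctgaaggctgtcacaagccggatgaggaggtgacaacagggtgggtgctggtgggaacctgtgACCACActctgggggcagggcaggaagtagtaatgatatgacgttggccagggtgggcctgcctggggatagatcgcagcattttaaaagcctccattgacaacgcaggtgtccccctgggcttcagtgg
Nkg7, chr7:43436888-43437137, plus strand: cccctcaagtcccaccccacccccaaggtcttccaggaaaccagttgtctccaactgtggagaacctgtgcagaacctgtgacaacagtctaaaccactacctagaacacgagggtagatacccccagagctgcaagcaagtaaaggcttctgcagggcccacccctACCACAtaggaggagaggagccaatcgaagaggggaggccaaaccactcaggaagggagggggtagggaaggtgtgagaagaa

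For the other 5 genes with a match, the motif is shown with 12 bases on each side, to let the surrounding letters be compared. The match began 129 bases before the start in Klrk1, 229 in Klre1, 89 in Klrb1c and 50 in Gzma. Gzmb had a match at 93 bases and another at 34 bases before the start, of which the nearer is shown. Klre1 had 2 annotated starts and the motif lay in the window of 1 of them. The matches shown in full above began 176 and 41 bases before the first start of Ncr1, 130 before that of Prf1 and 83 before that of Nkg7.
Klrk1, chr6:129623976-129624005, minus strand: tgatagctgtgcTGTGGTtgtgtgggggtt
Klre1, chr6:129577972-129578001, plus strand: ttgtgtttaagcTGTGGTtccagagagtca
Klrb1c, chr6:128788713-128788742, minus strand: aggaaggaaagcTGTGGTcatggtgttttg
Gzma, chr13:113101014-113101043, minus strand: gagaagaacaaaACCACAtcctttgcactc
Gzmb, chr14:56262351-56262380, minus strand: tgtgggttctgcTGTGGTtacttcatgatt
The motif followed the letters GC in Klrk1, Klre1, Klrb1c and the nearer site of Gzmb. Read on its own strand, it did not do so in Ncr1, Prf1, Nkg7, Gzma or the farther site of Gzmb. Cd244a had no match in its window. Genes of related lists were searched in the same way. The motif was found for 8 of 14 other granule proteins (57.1%) and 11 of 33 other receptors of natural killer cells (33.3%), and for 1 of 12 ligands (8.33%). It was also found for 1 of 6 T cell markers (16.7%) and for 2 of 6 hepatocyte markers (33.3%). Some of these genes are recent copies of each other and share sequence, so they are not separate observations, and no test was made of these shares.

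**Figure D1:**
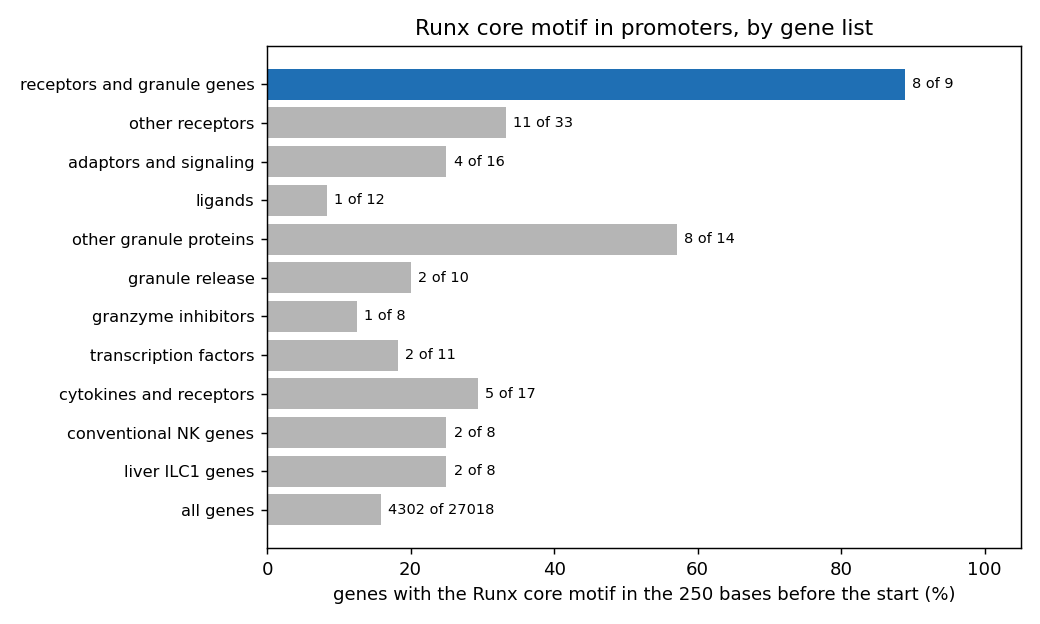
Share of genes, in percent, that hold the Runx core motif in the 250 bases before a RefSeq transcription start, for the 10 receptor and granule genes (blue), 10 related gene lists and all genes of the table (grey), with the number of genes written beside each bar. The receptor and granule genes stand at 88.9% (8 of 9 genes with an entry), the other granule proteins at 57.1% and all genes at 15.9%.

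The values are log2 expression per gene. The array medians lay between 3.89 and 3.95, and every pair of arrays correlated at r = 0.987 to 0.991 across genes, which are not independent replicates. Glrx, the gene in the vector, stood at 6.60, 7.77 and 7.24 in the AAV-Glrx pools and at 6.11, 6.03 and 5.66 in the AAV control pools (log2 difference 1.27, standard error 0.27), with no overlap. Of all genes, 1 passed an adjusted p of 0.1 (0.00365%), Zbtb16, which encodes the transcription factor PLZF (log2 difference -2.12, limma adjusted p = 0.0896). PLZF acts in innate-like lymphocytes, but in RNA of whole liver the cell source of Zbtb16 cannot be told. The mean log2 level of Zbtb16 was 7.12 in AAV control. In both groups the tissue label was borne out by hepatocyte markers, whose summed level was 16764 to 17146 in AAV-Glrx and 16278 to 16892 in AAV control on the linear scale. Bright markers such as Alb (mean log2 level 12.4) weigh most in this sum. The lowest marker, Ass1, was at 4.21 to 4.95 over the 6 arrays. The 8 natural killer markers, which include 5 of the receptor genes, summed to 116 to 130 in AAV-Glrx and 109 to 127 in AAV control. Of the 10 genes, 6 had a mean log2 level below 3.92, the median of all genes.

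The receptor and granule genes did not move together between the groups. None of the 10 passed the test over all genes (limma adjusted p from 0.847 to 0.988). Of the 10, 7 had a higher mean in AAV-Glrx, against 49.5% of all genes, and 3 a lower mean, against 50.5%. Of the 6 receptor genes, 5 had a higher mean in AAV-Glrx, led by Ncr1, whereas the granule genes split, with Prf1 and Nkg7 lower and Gzma and Gzmb higher. The sign of Klrk1, Klrd1, Cd244a and Gzmb turned when single arrays were left out. The median log2 difference, AAV-Glrx minus AAV control, was 0.04 over the 10 genes, 0.06 over the receptors and -0.12 over the granule genes, and it was -0.00122 over all genes. An unadjusted p under 0.05 was reached by 2 genes with a lower mean, against a background of 3.01% of all genes, and by 1 gene with a higher mean, against 2.76%. The groups did not overlap for 2 of the 10 genes (20%), against 10.9% of all genes. In both of these, Prf1 and Nkg7, AAV-Glrx was the lower group, which was so for 5.38% of all genes. No test of the list as a whole was made. In RNA of whole liver, fewer cells of a type and less RNA per cell cannot be told apart.

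**Figure D2:**
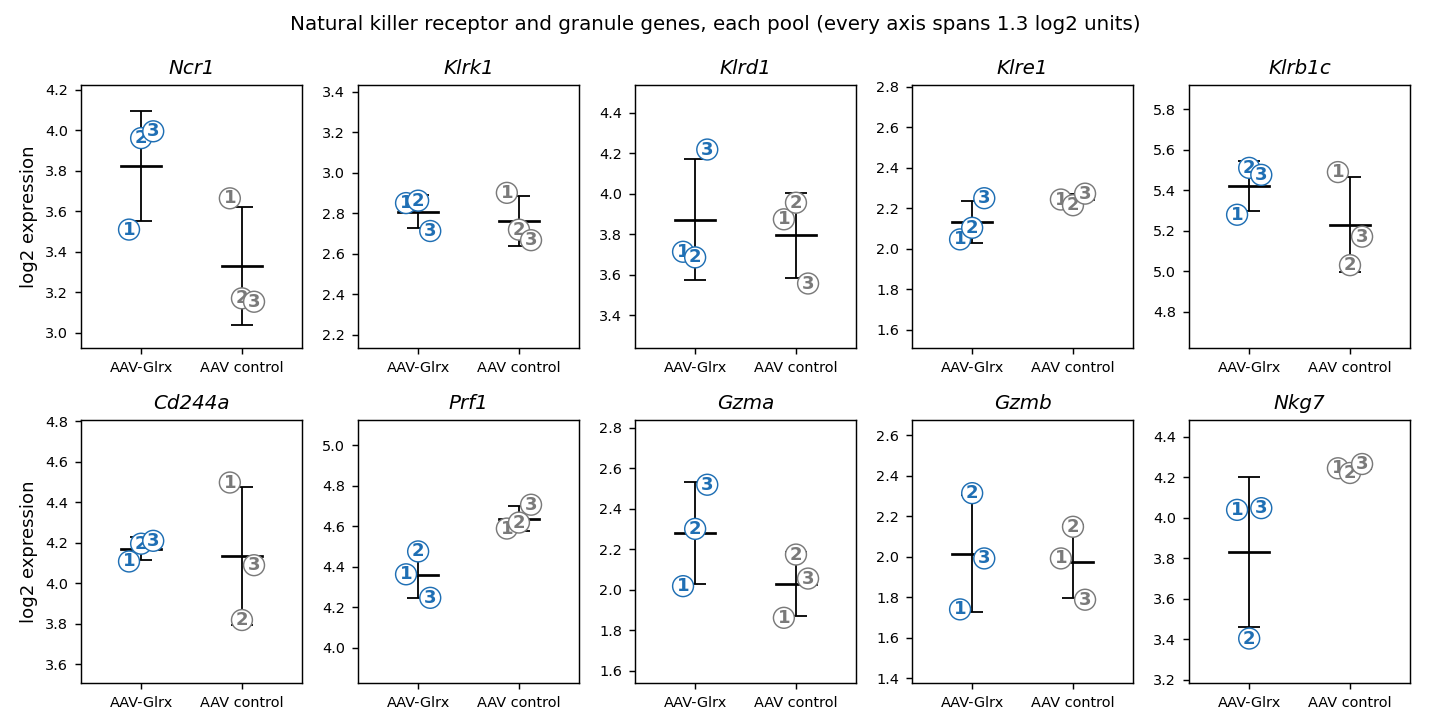
Log2 expression of the 10 genes in each pool, with AAV-Glrx (blue) left of AAV control (grey). Numbers in circles are the pool numbers, the horizontal bar is the mean and the whiskers are 1 SD (n = 3 pools), and every vertical axis spans the same distance. Prf1 and Nkg7 are the 2 genes whose groups do not overlap.

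Prf1 encodes perforin, the pore-forming protein without which granzymes do not reach the cytosol of the target. Its log2 level was 4.36, 4.48 and 4.25 in AAV-Glrx 1 to 3, against 4.59, 4.62 and 4.71 in AAV control 1 to 3. Every AAV-Glrx pool was below every AAV control pool. The means were 4.36 ± 0.11 in AAV-Glrx and 4.64 ± 0.06 in AAV control (SD, n = 3 pools each), a log2 difference of -0.28 (standard error 0.09, 95% interval -0.49 to -0.06), or 1.21-fold lower. By limma the unadjusted p was 0.0196 and the adjusted p 0.847, and 593 of all genes had a smaller p. Its spread within groups was small, with a pooled SD at percentile 22.7 of all genes.

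Nkg7 encodes a membrane protein of cytotoxic granules that promotes their release. It stood at a log2 level of 4.04, 3.40 and 4.05 in the AAV-Glrx pools, against 4.24, 4.22 and 4.27 in the AAV control pools. The AAV control pools lay within 0.05 of each other and all were above AAV-Glrx, but AAV-Glrx 2 was far below the other AAV-Glrx pools. The mean was 3.83 ± 0.37 in AAV-Glrx and 4.24 ± 0.02 in AAV control (SD, n = 3 pools each). The log2 difference was -0.41 (standard error 0.17, 95% interval -0.81 to -0.02), or 1.33-fold lower, with an unadjusted p of 0.0432 and an adjusted p of 0.858 by limma. Without AAV-Glrx 2 the difference was -0.20, with an unadjusted p of 0.0688 (limma).

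The means of both granzymes were higher in AAV-Glrx, for Gzmb with a sign that turned without AAV-Glrx 2 or AAV control 3. Gzma, a granzyme that cuts after basic residues, was at 2.02, 2.30 and 2.52 on the log2 scale in the AAV-Glrx pools and at 1.86, 2.17 and 2.06 in the AAV control pools. The groups overlapped, with the AAV-Glrx 2 and 3 pools above every AAV control pool. The log2 difference was 0.25 (standard error 0.15, 95% interval -0.09 to 0.59, limma unadjusted p = 0.126), and with an array left out it ran from 0.13 without AAV-Glrx 3 to 0.38 without AAV-Glrx 1 (unadjusted p = 0.0261). Gzmb, the granzyme that cleaves caspases and other substrates after aspartate, stood at 1.74, 2.31 and 1.99 in AAV-Glrx and at 1.99, 2.15 and 1.79 in AAV control. Its log2 levels overlapped throughout, and the difference was 0.04 (95% interval -0.33 to 0.41, limma unadjusted p = 0.812). Both granzymes lay in the low part of the scale.

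Ncr1 encodes the activating receptor NKp46, which in lymphocytes is largely restricted to natural killer cells and other innate lymphoid cells. Its log2 level was 3.51, 3.96 and 3.99 in AAV-Glrx 1 to 3, against 3.66, 3.17 and 3.15 in AAV control 1 to 3. AAV-Glrx 2 and 3 were above all AAV control pools, while AAV control 1 was above AAV-Glrx 1, so the groups overlapped. The means were 3.82 ± 0.27 in AAV-Glrx and 3.33 ± 0.29 in AAV control (SD, n = 3 pools each). The log2 difference of 0.49 (standard error 0.18, 95% interval 0.07 to 0.91), or 1.41-fold higher, was the largest of the 10 genes, with an unadjusted p of 0.0271 and an adjusted p of 0.847 (limma). Ncr1 also had the widest scatter within groups, with a pooled SD at percentile 90.7 of all genes. With an array left out, the difference ran from 0.41 without AAV control 3 (unadjusted p = 0.0908) to 0.66 without AAV control 1 (unadjusted p = 0.00546), and the unadjusted p was above 0.05 without AAV-Glrx 2, AAV-Glrx 3, AAV control 2 or AAV control 3 (limma).

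Klrb1c, the gene of the NK1.1 antigen used to stain natural killer cells in C57BL/6 mice, had the same 3 low pools as Ncr1, which were AAV-Glrx 1 and AAV control 2 and 3. Its log2 level was 5.28, 5.51 and 5.48 in the AAV-Glrx pools and 5.49, 5.03 and 5.17 in the AAV control pools. AAV control 2 and 3 were below every AAV-Glrx pool, whereas AAV control 1 lay among them. The log2 difference was 0.19 (standard error 0.13, 95% interval -0.12 to 0.50), with an unadjusted p of 0.194 by limma, and with an array left out it ran from 0.09 without AAV control 2 (unadjusted p = 0.524) to 0.32 without AAV control 1 (unadjusted p = 0.0283). Cd244a encodes 2B4, a receptor of the SLAM family that binds CD48. It was at a log2 level of 4.11, 4.19 and 4.21 in AAV-Glrx and at 4.50, 3.82 and 4.09 in AAV control, where it was most scattered. AAV control 1 was the highest of the 6 pools and AAV control 2 the lowest. The log2 difference was 0.04 (95% interval -0.34 to 0.41).

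The 3 remaining receptors are lectin-like proteins, and their genes follow each other on chromosome 6 in the RefSeq gene order as Klre1, Klrd1 and Klrk1. Klrk1 encodes NKG2D, which recognizes stress-induced ligands on target cells. Its log2 level was 2.85, 2.86 and 2.71 in AAV-Glrx and 2.90, 2.72 and 2.67 in AAV control, with a difference of 0.05 (95% interval -0.18 to 0.28). Klrd1 encodes CD94, the shared partner of the NKG2A, NKG2C and NKG2E chains. It was at 3.71, 3.69 and 4.22 in AAV-Glrx and at 3.87, 3.96 and 3.56 in AAV control on the log2 scale, a difference of 0.08 (95% interval -0.32 to 0.47). AAV-Glrx 3 was the highest pool and AAV control 3 the lowest. Klre1 encodes a receptor that pairs with Klri1 or Klri2, and it stood at 2.05, 2.10 and 2.25 in AAV-Glrx and at 2.24, 2.21 and 2.27 in AAV control. It was the 1 receptor with a lower mean, with a log2 difference of -0.11 (95% interval -0.32 to 0.10). Although they are neighbors, these genes did not share an order of pools, and the unadjusted p of the 3 genes ran from 0.254 to 0.663 (limma).

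**Figure D3:**
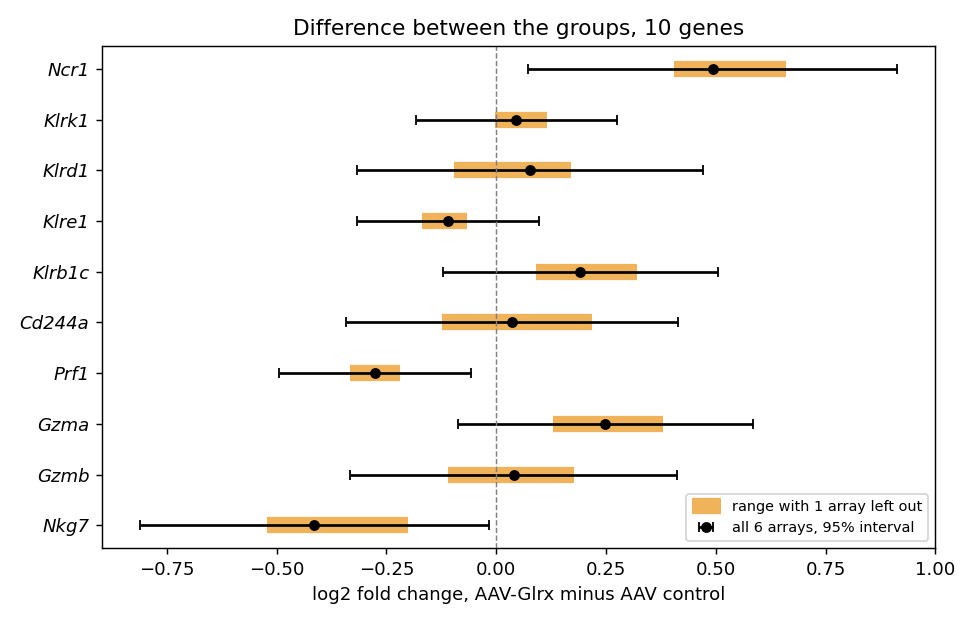
Log2 difference between AAV-Glrx and AAV control for the 10 genes (x axis, positive where AAV-Glrx is higher), receptors above and granule genes below. Points and whiskers are the limma estimate from 6 arrays and its 95% interval, and orange bars span the estimates when 1 array is left out. The intervals of Ncr1, Prf1 and Nkg7 do not reach 0, and the bars of Klrk1, Klrd1, Cd244a and Gzmb cross it.

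The intervals set how much these arrays could show. Their median half-width was 0.354 on the log2 scale over the 10 genes and 0.261 over all genes. The widest scatter within groups belonged to Ncr1, Nkg7, Klrd1, Cd244a and Gzmb, whose pooled SD lay at percentiles 84.8 to 90.7 of all genes, and the narrowest to Klrk1, Prf1 and Klre1, at percentiles 14.8 to 30.3. Klre1 and Klrk1 also lay in the low part of the scale, at mean log2 levels of 2.19 and 2.79. A p-value that misses the threshold at such interval widths does not show that the groups were alike.

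The pools of a group differed among themselves. AAV control 1 lay above the mean over the 6 arrays for 8 of the 10 genes, and AAV control 3 for 3 of them. In AAV-Glrx, pool 1 was above the mean for 2 genes, pool 2 for 6 and pool 3 for 7. The median log2 deviation over the 10 genes was -0.09, 0.06 and 0.06 in AAV-Glrx 1 to 3, and 0.09, 0.02 and -0.11 in AAV control 1 to 3. The pools of each group thus lay on both sides of 0. Summed on the linear scale, the 10 genes came to 136, 147 and 154 in AAV-Glrx and to 158, 135 and 138 in AAV control, so that AAV control 1 was the highest of all pools and AAV control 2 the lowest. Summed levels of 6 Kupffer cell and macrophage markers had the same pool at the top, with 441, 632 and 603 in AAV-Glrx and 743, 535 and 557 in AAV control. All 6 of these markers had a lower mean in AAV-Glrx (median log2 difference -0.10, unadjusted p above 0.05 for each by limma), and the lowest value was that of Timd4, at a log2 level of 3.39 in AAV control 1. The part of these markers in the results for Ncr1, Klrk1, Klrb1c and Cd244a was not tested.

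**Figure D4:**
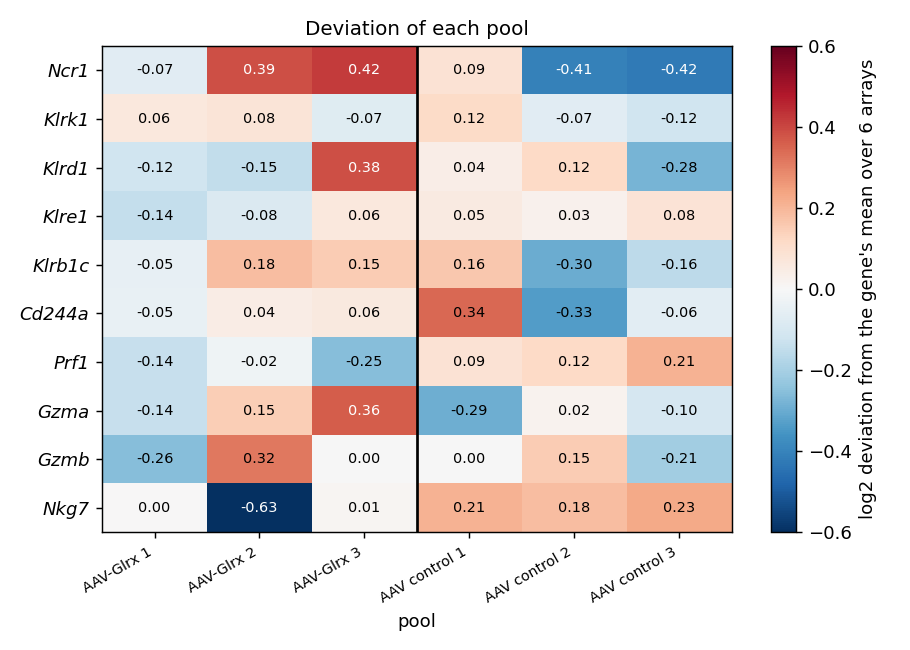
Log2 deviation of each pool from the gene's mean over the 6 arrays, for the 10 genes, with the AAV-Glrx pools left of the AAV control pools. Red is above and blue below the mean. Ncr1, Klrk1, Klrb1c and Cd244a are above it in AAV control 1 and below it in AAV control 2 and 3, and Nkg7 in AAV-Glrx 2 is the lowest cell.

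T cells share the granule genes, and most of their markers had slightly lower means in AAV-Glrx. Of 8 markers measured, 7 had a lower mean, against 50.5% of all genes, with a median log2 difference of -0.15. The groups did not overlap for 2 of the 8, against 10.9% of all genes. Cd3e, a chain of the T cell receptor complex, was at 5.09, 5.02 and 4.94 on the log2 scale in AAV-Glrx and at 5.29, 5.13 and 5.54 in AAV control, a difference of -0.30. Cd8b1, a chain of the CD8 coreceptor of cytotoxic T cells, was at 3.03, 2.99 and 3.21 in AAV-Glrx and at 3.40, 3.56 and 3.28 in AAV control, a difference of -0.34. Neither passed over all genes (limma adjusted p = 0.847 for both). Of the other chains of these complexes, Cd3d had a higher mean in AAV-Glrx (log2 difference 0.20). Cd3g and Cd8a differed by -0.01 and -0.05 and Trac by -0.36, and the groups overlapped for each of these chains. The summed linear level of the 8 markers was 146, 135 and 144 in AAV-Glrx and 147, 161 and 181 in AAV control, with the groups apart by little between AAV-Glrx 1 and AAV control 1. None of the 8 was at the bottom of the scale, the lowest being Cd3d at a log2 level of 2.95 in AAV control 3. Prf1 and Nkg7 were lower in the same group as these markers, whereas 5 of the 6 receptor genes had a higher mean there. Of these, Klrk1, Klrd1 and Cd244a changed sign when single arrays were left out. Among other receptors of natural killer cells, 28 of 36 had a lower mean in AAV-Glrx (77.8%), as most T cell markers did. The part of T cells in the results for Prf1 and Nkg7 was not tested.

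The genes around the 10 were described in 10 further lists. Together these lists had 155 measured genes, of which 99 had a lower mean in AAV-Glrx (63.9%), against 50.5% of all genes, with a median log2 difference of -0.03. None passed over all genes (limma, smallest adjusted p = 0.847). An unadjusted p under 0.05 was reached by 8 lower genes, against 3.01% of all genes, and 3 higher genes, against 2.76%. Together these were 7.1% of the 155, against 5.77% of all genes. The groups did not overlap for 17 genes (11%), against 10.9% of all genes. AAV-Glrx was the lower group for 13 of these, against 5.38% of all genes, and the higher for 4, against 5.51%. Counted in either direction, both shares were thus near the background, but most of the genes counted were lower in AAV-Glrx.

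**Figure D5:**
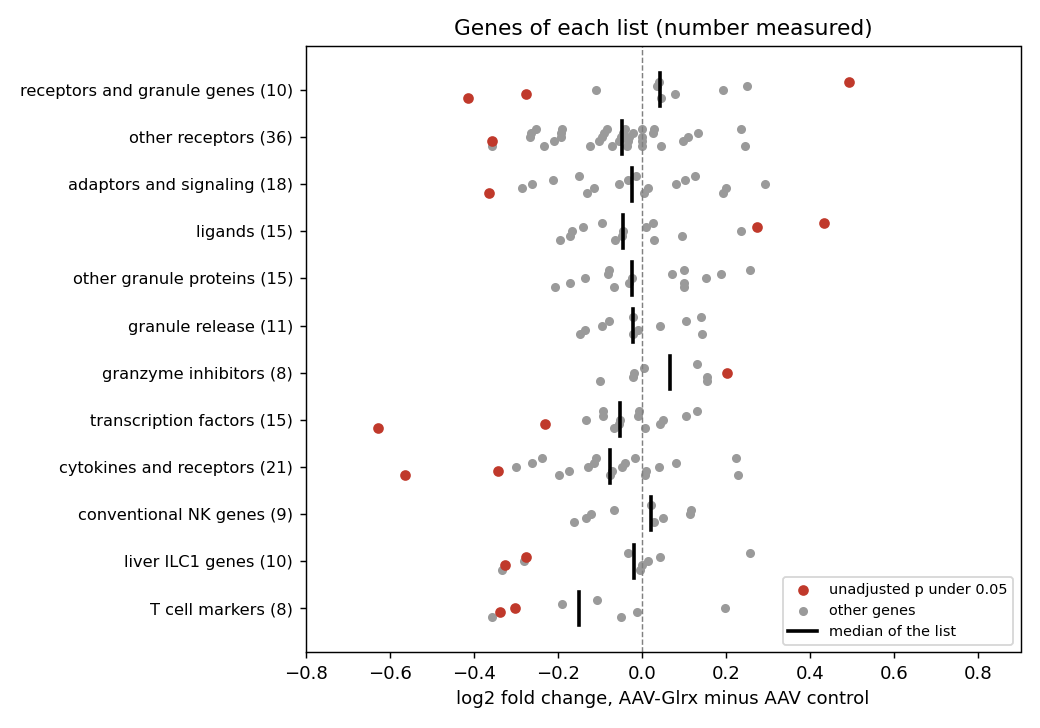
Log2 difference between AAV-Glrx and AAV control (x axis, positive where AAV-Glrx is higher) for each gene of the 10 receptor and granule genes, 10 related lists and the T cell markers, with the number of genes measured in brackets. Each point is a gene (red at an unadjusted p under 0.05, limma), black bars are medians, and vertical scatter within a row has no meaning. Medians run from -0.15 for the T cell markers to 0.07 for the granzyme inhibitors.

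Among 36 other receptors of natural killer cells, 28 were lower by their means, and the median log2 difference was -0.05. Slamf6, a SLAM family receptor like Cd244a and also found on T cells, was the 1 with an unadjusted p under 0.05. It stood at a log2 level of 3.38, 3.25 and 3.35 in AAV-Glrx and at 3.56, 3.72 and 3.77 in AAV control, a difference of -0.36 (standard error 0.09, limma unadjusted p = 0.00542), with no overlap. Receptor partners of the 10 genes had small differences. Klrc1, which encodes the inhibitory chain NKG2A that pairs with CD94, had a log2 difference of -0.13, and the Klre1 partners Klri1 and Klri2 had differences of -0.05 and -0.09. Their unadjusted p ran from 0.413 to 0.785 (limma).

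Signaling proteins of these receptors were mixed, with 10 of 18 lower (median log2 difference -0.02). Hcst and Tyrobp, the adaptors DAP10 and DAP12 through which NKG2D signals in the mouse, differed by -0.12 and -0.06 on the log2 scale, and their groups overlapped. Sh2d1a encodes SAP, the adaptor that binds 2B4 and Slamf6. It was at a log2 level of 2.55, 2.53 and 2.72 in AAV-Glrx and at 2.88, 3.10 and 2.91 in AAV control, all of them below the median of all genes. Every AAV-Glrx pool was below every AAV control pool, with a difference of -0.36 (standard error 0.10, limma unadjusted p = 0.00709).

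Ligands on the side of the target cell were split, with 8 of 15 lower (median log2 difference -0.05). Cd48, the ligand of Cd244a, differed by -0.09, and Clec2d, a ligand of the Klrb1 family, by 0.03. The 2 ligand genes with an unadjusted p under 0.05 belong to the same Clec2 family and had higher means. Clec2f was at a log2 level of 1.88, 1.73 and 1.58 in AAV-Glrx and at 1.06, 1.25 and 1.59 in AAV control, a difference of 0.43 (limma unadjusted p = 0.0198). Clec2h was at 3.42, 3.15 and 3.40 in AAV-Glrx and at 2.94, 3.14 and 3.06 in AAV control on that scale, a difference of 0.27 (limma unadjusted p = 0.0369). Clec2f lay near the bottom of the scale, and for Clec2h the lowest AAV-Glrx pool barely exceeded the highest AAV control pool.

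Other proteins of the granule and of its release did not follow Prf1 and Nkg7 in 1 direction. Of 15 other granule proteins, 8 had a lower mean and none had an unadjusted p under 0.05. Srgn, the proteoglycan serglycin that packs granzymes and perforin, differed by -0.21 on the log2 scale. Ctsc, the protease that activates granzymes, differed by -0.08. Tnfsf10 encodes TRAIL, the death ligand of liver ILC1, and had the largest difference among the higher ones, 0.26, with overlapping groups (limma unadjusted p = 0.132). Without AAV control 2 the Tnfsf10 difference was 0.095. Of 11 genes of granule release, 7 had a lower mean. Rab27a, which docks granules at the membrane, was at a log2 level of 5.17, 5.21 and 5.31 in AAV-Glrx and at 5.43, 5.31 and 5.40 in AAV control, a difference of -0.15. Lyst, the gene of the beige mouse, in which granules are enlarged, was at 7.15, 7.21 and 7.12 in AAV-Glrx and at 7.03, 6.98 and 7.04 in AAV control, a difference of 0.14. Neither gene had overlapping groups, in opposite directions, although AAV-Glrx 3 and AAV control 2 were all but equal for Rab27a, and Unc13d, which primes granules for fusion, differed by 0.04.

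Of 8 serpin genes related to granzyme inhibitors, 5 had a higher mean (median log2 difference 0.07). Serpinb9, whose product blocks granzyme B in the cells that make it, differed by 0.13 (95% interval -0.17 to 0.43). Serpinb9g, of the same family, was at a log2 level of 1.74, 1.56 and 1.67 in AAV-Glrx and at 1.47, 1.42 and 1.47 in AAV control, without overlap but near the bottom of the scale. Its difference was 0.20 (limma unadjusted p = 0.048).

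Transcription factors that form natural killer cells had 10 of 15 lower means (median log2 difference -0.05). Ikzf3, which encodes Aiolos, was at a log2 level of 3.71, 3.45 and 3.85 in AAV-Glrx and at 3.93, 4.50 and 4.46 in AAV control. Its difference of -0.63 (standard error 0.17, limma unadjusted p = 0.00705) was the largest among the further lists, and the gene is also transcribed in B cells and T cells. Summed levels of 3 B cell markers were 33.4, 35.1 and 42.1 in AAV-Glrx and 44.1, 59.3 and 44.8 in AAV control, with all 3 lower by their means (lowest value Ms4a1 at a log2 level of 2.99 in AAV-Glrx 1). Of these, Cd79a, a chain of the B cell receptor complex, was at 3.39, 3.57 and 3.61 in AAV-Glrx and at 3.73, 4.61 and 4.04 in AAV control on the log2 scale, a difference of -0.61 without overlap (limma unadjusted p = 0.0194, adjusted p = 0.847), which was -0.36 without AAV control 2. The part of the B cell markers in the result for Ikzf3 was not tested. Nfil3, which natural killer cells need in order to develop, was at 4.92, 4.93 and 4.92 in AAV-Glrx and at 5.25, 5.10 and 5.11 in AAV control on the log2 scale. The groups did not overlap, with a difference of -0.23 (limma unadjusted p = 0.0268).

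Of 21 cytokine genes and cytokine receptors that act on or come from natural killer cells, 15 had a lower mean (median log2 difference -0.08). Ccl5, a chemokine stored and released by natural killer cells and T cells, was at a log2 level of 4.60, 4.65 and 4.34 in AAV-Glrx and at 5.17, 5.10 and 5.02 in AAV control. The pools of the groups were well apart, with a difference of -0.56 (standard error 0.11, 95% interval -0.82 to -0.31, limma unadjusted p = 0.00089 and adjusted p = 0.847). Il12a, a subunit of interleukin 12, which activates natural killer cells, was at 2.25, 2.33 and 2.23 in AAV-Glrx and at 2.51, 2.67 and 2.66 in AAV control on the same scale, a difference of -0.34 (limma unadjusted p = 0.00503). Il12a, too, lay in the low part of the scale.

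Genes that separate circulating natural killer cells from liver ILC1 were also compared. None of 9 genes of conventional natural killer cells had an unadjusted p under 0.05 or groups without overlap, against 5.77% and 10.9% of all genes. A lower mean was found for 4 of them, against 50.5% of all genes. Eomes, the transcription factor of conventional natural killer cells, differed by -0.13 and Spn by -0.16 on the log2 scale. Of 10 genes of liver ILC1, 7 were lower by their means, and the median log2 difference was -0.02. Cd200r1, an inhibitory receptor, was at a log2 level of 1.99, 1.97 and 2.04 in AAV-Glrx and at 2.38, 2.21 and 2.39 in AAV control, a difference of -0.33 (limma unadjusted p = 0.00669). These levels were in the low part of the scale. Inpp4b, a lipid phosphatase, was at 4.01, 4.03 and 4.14 in AAV-Glrx and at 4.28, 4.37 and 4.35 in AAV control, a difference of -0.28 (limma unadjusted p = 0.0125). The groups did not overlap for either gene, and neither gene passed over all genes (limma adjusted p = 0.847). An unadjusted p under 0.05 was thus reached by 2 of the 10 ILC1 genes (20%), against 5.77% of all genes. The groups did not overlap for 2 of the 10 (20%), against 10.9% of all genes. Lists this short do not set ILC1 genes apart from those of conventional natural killer cells.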

How the data were processed

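Each deposited value is the log2 expression of an Entrez gene, made by the authors from the 6 arrays by RMA with Brainarray gene definitions. The software in the submitters' processing notes is affy 1.61.0 under R 3.6.0. RMA brings all arrays to 1 distribution, so a shift of most genes in 1 direction could not be seen. No source used here gives the genome build of the probe definitions, so coordinates are printed for RefSeq sequences (GRCm38.p6) alone. The number of arrays limits the precision.

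The log2 values of all 27381 genes, 26794 of them with a symbol, entered a limma fit (lmFit, then eBayes; version 3.58.1, R 4.3.3) without covariates or filter. Adjustment over all genes was by Benjamini-Hochberg, with 0.1 as the threshold. These p-values measure the spread between pools. A linear level is 2 to the power of the log2 value. The steps were tested on simulated data. An exact permutation test of 3 against 3 pools cannot go below p = 0.1 and was not used.

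The 10 genes and the lists were chosen with earlier results of these data known. Beyond the 10 genes, the text names from each list the genes with an unadjusted p under 0.05 (at most 4), or the 2 with the smallest p where there was none, and fixed partners of the 10 genes. This holds for the T cell and B cell markers too. Of the hepatocyte, T cell, B cell and macrophage marker lists the lowest gene is also named. Some lists share genes, and several of the genes (among them Eomes, Nfil3, Il12a and Slamf6) are in the study's own heatmaps, so they are no independent evidence of a direction. Klra8, Klrc2, Lck, Raet1a, Raet1b, Raet1c, H60a, Vamp7, Il2rg and Tf were listed but not analysed here. Probes of closely related receptor or granzyme genes may bind more than 1 of them. As alternatives, limma was run with an intensity trend, a robust prior, array weights or the replicate number as a block, on median-centred or again quantile-normalized arrays, on the brighter genes alone, at other thresholds and without each array in turn. Scan dates were not used here, so batches were not tested.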

Additional observations from a re-analysis of the deposited data

How the results depend on the processing

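Of 42 named genes, 32 kept the sign of their difference under up to 13 alternatives each, and 6 of the 10 receptor and granule genes did so, among them Ncr1, Prf1, Nkg7 and Klrb1c. No alternative brought any of the 10 under an adjusted p of 0.1 (limma). When each array was left out in turn, the log2 difference ran from 0.41 to 0.66 for Ncr1, from -0.33 to -0.22 for Prf1 and from -0.52 to -0.20 for Nkg7. Over all alternatives the unadjusted p of limma was 0.00546 to 0.0908 for Ncr1, 0.0138 to 0.0684 for Prf1 and 0.0249 to 0.0938 for Nkg7.

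With an array left out, the sign turned for Cd244a (-0.12 to 0.22), Gzmb (-0.11 to 0.18), Klrd1 (-0.10 to 0.17), Klrk1 (-0.0016 to 0.12), Clec2d (-0.075 to 0.15), Ctsc (-0.20 to 0.11), Hcst (-0.23 to 0.027), Klri1 (-0.23 to 0.15), Tyrobp (-0.11 to 0.036) and Unc13d (-0.11 to 0.18). With array weights, Clec2d was at -0.0059. Without a change of sign, the difference moved by over 1.5 times for Klre1 (-0.17 to -0.07), Cd3e (-0.40 to -0.19), Cd48 (-0.15 to -0.02), Cd79a (-0.80 to -0.36), Eomes (-0.24 to -0.03), Klrc1 (-0.28 to -0.017), Klri2 (-0.15 to -0.0095), Serpinb9 (0.0054 to 0.20), Spn (-0.27 to -0.02) and Srgn (-0.28 to -0.11), beside Nkg7, Klrb1c, Gzma and Tnfsf10 (0.095 to 0.36).

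Of the 10 genes, the number higher at an unadjusted p under 0.05 was 0 to 2 with an array left out, the number lower 0 to 2, the number without overlap 2 to 5 (5 without AAV control 1), the number with a lower mean 3 to 6 and the number with a higher mean 4 to 7 (6 and 4 without AAV control 3). Groups of fewer pools are apart more often by order alone, and the share over all genes was not counted for these settings. The median log2 difference of the 10 genes with an array left out was -0.02 to 0.12. With genes above the median level only, 4 of the 10 were left (Klrb1c, Prf1, Nkg7 and Cd244a), with a median of -0.12, 2 higher means and 0 higher at an unadjusted p under 0.05. Over all genes, the 1 lower call became 0 with quantile normalization again, 0 at an adjusted p under 0.05, and 0 to 2 with an array left out.

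Deviations of pools with the same replicate number correlated at r = -0.036, -0.171 and 0.021 for numbers 1 to 3. For pools with unlike numbers, r ran from -0.140 to 0.178. These values show no pairing by number, but they cannot decide the question, because the deviations of the 3 pools of a group depend on each other. With the replicate number as a block, 0 of the 10 genes were higher at an unadjusted p under 0.05 (Ncr1 at 0.0599 by limma) and 0 of all genes passed.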
